A study of Mus musculus with 10 samples.

Results

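The cell cycle genes described here are a list of 42 mouse genes whose RNA rises when a cell replicates its DNA or divides. The list was put together by gene function, with earlier results of these data known, and all 42 were present in both kinds of file, among 55341 genes of the bulk count tables and 32285 genes of the single-cell matrix. They fall into 6 roles. The origin licensing and replication fork genes are Mcm2, Mcm3, Mcm4, Mcm5, Mcm6, Mcm7, Cdc6, Cdt1, Gins2, Pcna, Pclaf and Uhrf1. The nucleotide synthesis genes are Tyms, Rrm1, Rrm2 and Tk1. The cyclins and their kinase are Ccne1, Ccne2, Ccna2, Ccnb1, Ccnb2 and Cdk1. The mitotic kinases with the checkpoint and anaphase genes are Aurka, Aurkb, Birc5, Plk1, Bub1, Bub1b, Cdc20 and Ube2c. The centromere, spindle and midzone genes are Cenpa, Cenpe, Cenpf, Kif11, Kif20a, Kif23, Tpx2 and Nusap1, and the chromatin and proliferation markers are Mki67, Top2a, Hmgb2 and Stmn1.

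The mice carried lung tumours grown from KP cells, a mouse lung tumour line given by vein to syngeneic hosts. They received vehicle, SHP099 (an inhibitor of the phosphatase SHP2), SX682 (an inhibitor of the chemokine receptors CXCR1 and CXCR2) or both drugs together, here called the combination, for 11 days. All groups therefore carry the same transplanted tumour line, and the tumour is a model grown from injected cells rather than one arising in the lung. Bulk RNA-seq covered Epcam+ cells sorted from nodules of 3 vehicle and 3 SHP099 mice, and single-cell RNA-seq covered live cells of nodules from 3 hashtagged mice per treatment, with the 3 mice of a treatment pooled in 1 capture. Treatment and capture therefore cannot be told apart in the single-cell data, and p-values measure the spread between mice within a pool.

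A cycling cell first loads the Mcm helicase on its replication origins with the help of Cdc6 and Cdt1, then copies its DNA with Pcna as the sliding clamp and with nucleotides made by ribonucleotide reductase, thymidylate synthase and thymidine kinase. Later Cdk1 with cyclins A and B drives entry into mitosis, aurora and polo kinases build the spindle, and Cdc20 with Ube2c turns on the anaphase-promoting complex. Genes of the DNA synthesis step are known targets of E2F factors, and genes of the G2 and M phases are known targets of the DREAM and MuvB complexes, which bind a short element called the cell cycle genes homology region (CHR).

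The promoters of 4 members are shown as examples. Each of these genes passed the test in at least 1 comparison below, and they do not all carry the same short elements. Other called members, such as Pcna and Tyms, are not shown. The RefSeq promoter table (build GRCm38.p6) held 34 of the 42 members, each as 250 bases before to 50 bases after the gene's start. Capitals mark a CHR motif (TTTGAA or TTCGAA), an E2F motif (TTTGGCGC or TTTCGCGC) or a CCAAT box (CCAAT), each searched on both strands, and every sequence reads 5′ to 3′ on the gene's strand. The Mcm5 promoter (chr8:75109259-75109558, plus strand) holds 2 overlapping E2F matches on opposite strands and 3 CCAAT boxes. The Ccnb1 promoter (chr13:100786437-100786736, minus strand) holds 2 CCAAT boxes. The Cdc20 promoter (chr4:118437294-118437593, minus strand) holds 1 CHR motif and 2 CCAAT boxes, and the Plk1 promoter (chr7:122159185-122159484, plus strand) holds 1 of each.
Mcm5: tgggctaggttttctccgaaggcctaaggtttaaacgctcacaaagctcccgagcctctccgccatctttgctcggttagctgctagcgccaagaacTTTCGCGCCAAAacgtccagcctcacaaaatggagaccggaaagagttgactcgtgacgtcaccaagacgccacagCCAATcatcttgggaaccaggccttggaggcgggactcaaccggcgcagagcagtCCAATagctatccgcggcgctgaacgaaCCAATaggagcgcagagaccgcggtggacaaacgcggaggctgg
Ccnb1: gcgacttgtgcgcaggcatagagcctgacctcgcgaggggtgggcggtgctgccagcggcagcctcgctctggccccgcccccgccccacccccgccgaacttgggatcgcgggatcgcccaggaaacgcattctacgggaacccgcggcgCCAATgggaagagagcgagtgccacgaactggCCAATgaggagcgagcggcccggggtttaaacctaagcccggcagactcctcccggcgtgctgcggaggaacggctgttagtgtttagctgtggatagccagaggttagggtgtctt
Cdc20: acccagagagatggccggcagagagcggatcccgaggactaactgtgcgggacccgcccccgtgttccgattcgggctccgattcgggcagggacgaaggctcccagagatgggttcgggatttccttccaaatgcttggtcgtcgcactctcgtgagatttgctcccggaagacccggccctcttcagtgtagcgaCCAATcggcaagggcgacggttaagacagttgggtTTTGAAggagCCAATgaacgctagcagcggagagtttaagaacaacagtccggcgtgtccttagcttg
Plk1: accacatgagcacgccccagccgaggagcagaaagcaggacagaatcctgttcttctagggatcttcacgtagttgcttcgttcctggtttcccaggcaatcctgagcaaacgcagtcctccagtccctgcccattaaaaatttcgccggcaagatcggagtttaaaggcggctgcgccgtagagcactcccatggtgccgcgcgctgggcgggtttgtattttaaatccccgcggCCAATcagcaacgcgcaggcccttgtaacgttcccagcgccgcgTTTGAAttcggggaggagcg

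Among the 34 promoters, 17 (50%) held a CHR motif against 19.4% of all 27025 promoters of the same length. The motif was in 14 of the 18 tabled promoters of a G2/M sub-list of 22 members (77.8%) and in 2 of the 15 tabled promoters of an S-phase sub-list of 18 members (13.3%). An E2F motif was in 6 (17.6%), namely Mcm3, Mcm5, Mcm6, Mcm7, Cdt1 and Cdk1, against 0.833% of all promoters. A CCAAT box was in 27 (79.4%) against 37.9%. These are matches of letters in one window, counted without a test.

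The 6 bulk libraries held between 51939301 and 73361005 reads assigned to genes. The single-cell matrix held 44986 cells with an authors' cluster, no cell under 500 unique molecular identifiers (UMIs) or over 20% mitochondrial UMIs, and 1009 of 43973 barcode sequences occurred in more than 1 pool. The authors' 33 clusters (C1 to C33) and the 9 clusters of their separate T cell table (T1 to T9) carry numbers only, so a name below comes from marker genes and is written "-like". The cells of T1 to T9 also belong to C1 to C33. Results from these groupings therefore share cells and are not independent. UMIs were summed over each mouse's cells of a cluster, and a contrast was tested where both treatments had at least 2 mice with at least 10 cells. Levels across clusters are counts-per-million values (CPM), the members' UMIs over all UMIs of the mouse's cells there.

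**Figure D1:**
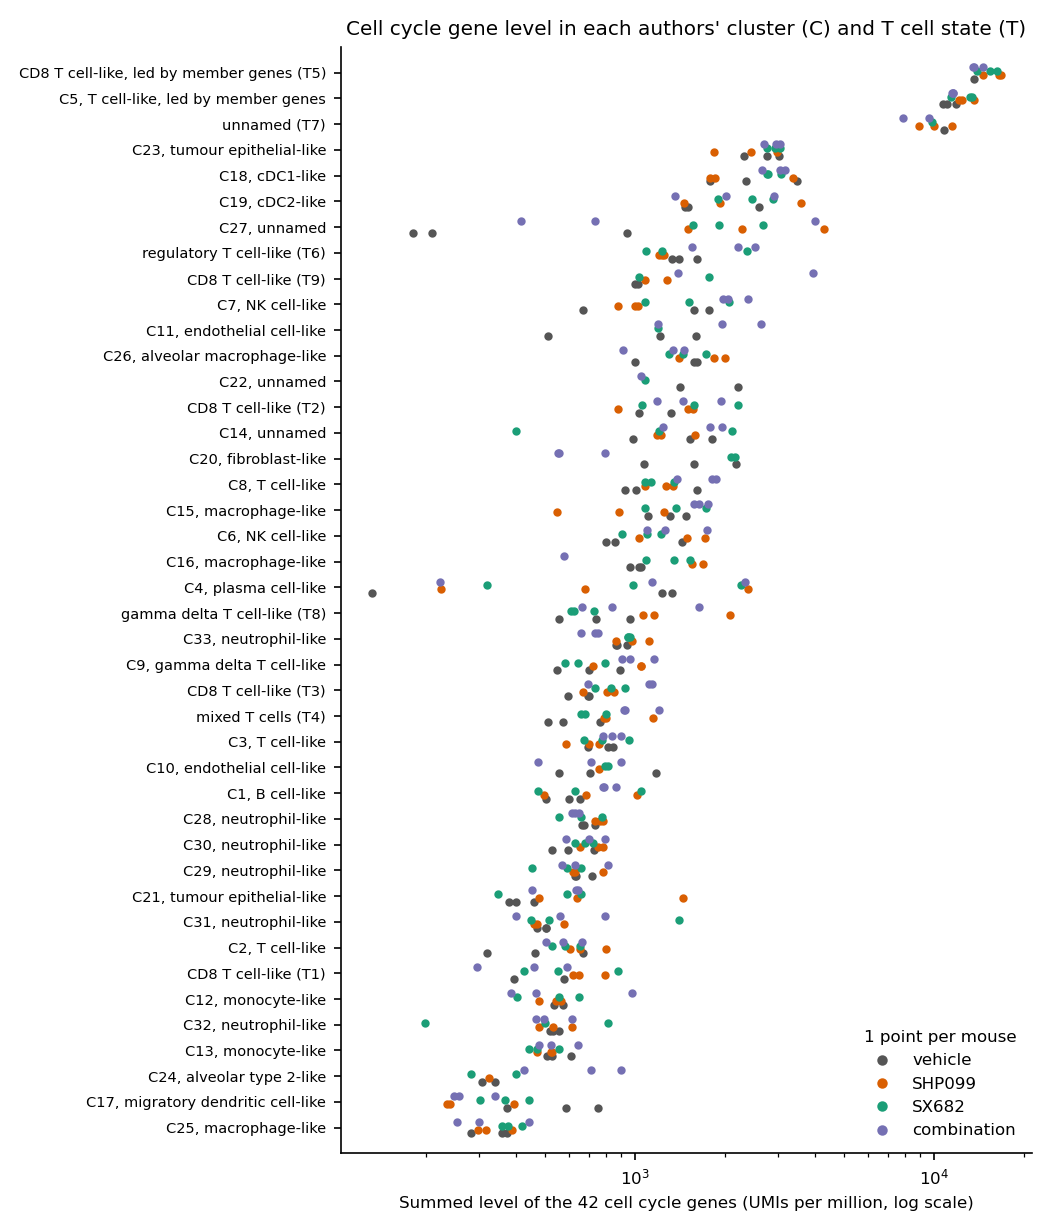
Summed level of the 42 cell cycle genes per mouse (x axis, CPM, log scale) in each authors' cluster and T cell state (y axis), with 1 point per mouse coloured by treatment. T5, C5 and T7 stand highest, with mean levels of 14885, 12051 and 9802, and C25 lowest at 347.

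The level of cell cycle transcripts was far higher in a few clusters than in the rest. These levels do not tell where most of the transcripts lie. Of 11320 Top2a UMIs over all cells, 4616 were in C23 and 2092 in C5. The summed level of the 42 genes was 14885 ± 1260 CPM in T cell state T5 (SD, n = 10 mice), 12051 ± 940 in cluster C5, which is T cell-like (n = 12) and 9802 ± 1191 in T7 (n = 7). Members made up 7 of the 10 leading genes by fold in T5, 4 in C5 and 1, Pclaf, in T7, whose first genes were Spp1 and the haemoglobin genes. The clusters were made from the expression of these same cells, so the levels across clusters are a description with no test. Next came C23, a tumour epithelial-like cluster, at 2738 ± 372, and C18, a cDC1-like dendritic cluster, at 2680 ± 615, which did not differ beyond their spread. C19, a cDC2-like cluster, was at 2175 ± 712 and C27, which no marker list names, at 1727 ± 1385. The lowest levels were 347 ± 56.6 in C25, a macrophage-like cluster, and 378 ± 155 in C17, a migratory dendritic cell-like cluster, also within each other's spread. Mature neutrophils do not divide, and the 6 neutrophil clusters together were at 683 ± 81.3, above C25 and C17. Only 201 of this was from the S-phase sub-list and 75.4 from the G2/M sub-list. The rest was Hmgb2 and Stmn1, which are in neither sub-list. These genes also hold much of the level elsewhere, as the sub-lists were at 3116 and 4501 in C5. They count in every summed level and share of cells below.

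The members differed in how low they were in clusters with little cell cycle RNA. Mki67, a protein of dividing cells' chromosome surface, reached 485 ± 100 CPM in T5 and 403 ± 63.6 in C5, and was 2.08 ± 3.15 in C13, a monocyte-like cluster, and 1.56 ± 3.81 in the neutrophil cluster C32. Top2a, which untangles replicated DNA, was at 671 ± 116 in T5, 555.3 ± 72.9 in C5 and 125 ± 31.5 in C23, against 2.98 ± 5.33 in the neutrophil cluster C30. Both genes thus read close to 0 in clusters where the list as a whole does not. Mcm5, a subunit of the replicative helicase, was highest in T7 at 170 ± 48.1, with T5 at 147 ± 33.2 inside that spread, and had no UMI in C32 in any of 12 mice.

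Pcna behaved otherwise across clusters. It was at 423 ± 67.1 CPM in T5 and 362 ± 74.1 in C5, but also at 154 ± 23.1 in C26, an alveolar macrophage-like cluster, and 146 ± 57.0 in C30, a neutrophil cluster with almost no Top2a. Its lowest cluster means were 39.7 ± 15.8 in C24, an alveolar type 2-like cluster, and 41.3 ± 11.5 in C17. The balance of the S-phase and the G2/M sub-lists also varied, but did not simply follow Pcna or the list level. The ratio of the mean S-phase level to the mean G2/M level was 0.686 in T5, 0.692 in C5, 0.715 in C23 and 0.942 in T7. Among other clusters it was 0.640 in C20, 0.647 in C22, 0.907 in C18 and 0.968 in C26. It was 1.84 in C21, the other tumour epithelial-like cluster, and 2.66 in neutrophils. In those 2 the S-phase members, Pcna among them, gave more RNA than the G2/M members.

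The clusters were compared between treatments with edgeR's quasi-likelihood test and Benjamini-Hochberg adjustment over all genes of each fit, and a member counts as called at an adjusted p below 0.05. SHP099 against vehicle gave 12 higher and 8 lower calls among 384 tests of a member in 1 of 28 clusters, against a background of 7.28% of all gene tests called in those clusters. SX682 against vehicle gave 0 calls among 421 tests in 31 clusters (background 0.512%), with 31 tests at an unadjusted p below 0.05 and 0 calls by DESeq2. The combination against vehicle gave 3 higher and 5 lower calls among 389 tests (background 4.33%). It gave 3 higher and 0 lower calls among 345 tests against SHP099 (0.632%), and 3 higher and 16 lower calls among 382 tests against SX682 (4.24%). Members were thus called in 5.21%, 0%, 2.06%, 0.87% and 4.97% of their tests, near or below the background except in the last 2 comparisons, which exceeded it slightly, and all 16 lower calls against SX682 came from cluster C20 described below. Comparisons with the same control share its mice. The test of whether one drug's effect differed with the other gave 1 higher and 0 lower calls among 345 tests (background 0.612%), for Hmgb2 in C7.

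The members called most often over the 5 comparisons and the clusters were Stmn1 with 5 higher and 1 lower call among 97 tests in 22 clusters, Hmgb2 with 5 higher among 142 in 31, Pcna with 5 higher among 132 in 29, and Cenpa with 2 higher and 3 lower among 70 in 15. Hmgb2 is a DNA-bending chromatin protein and Stmn1 a microtubule destabiliser. Resting cells also express both, and Cenpa is the histone variant of centromeres. Rrm2, Tk1 and Cdk1 each had 3 lower calls and no higher one. Of 61 called member tests over all fits, 8 kept their call whichever single mouse was left out.

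In CD8 T cells, members were higher in the combination. T cell states T1, T2, T3, T5 and T9 had at least 5 times more Cd8a and Cd8b1 UMIs than Cd4 UMIs and were summed, cycling or not, giving 106 to 230 cells per vehicle mouse and 221 to 456 per combination mouse. The fit tested 39 members, without Cdc6, Ccne2 and Bub1, whose counts were too low. In the combination 4 of the 39 rose against vehicle and none fell, against 3.77% of all genes called. The 39 had a median log2 fold change of 0.74, with 38 above 0, and 17 were higher in every combination mouse than in any vehicle mouse, against 20.2% of all genes not overlapping in either direction.

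By role, 3 of 11 licensing and fork genes were called, with 9 at an unadjusted p below 0.05. Pcna was at 119, 137 and 91.4 CPM, here scaled between mice by edgeR's TMM factors, in the 3 vehicle mice and at 205, 273 and 166 in the combination. All 3 combination mice were above all 3 vehicle mice, the SHP099 mice (161, 164 and 159) lay between, and the SX682 mice (174, 206 and 140) overlapped the combination. The log2 fold change of Pcna against vehicle was 0.89 ± 0.18 (SE, edgeR adjusted p = 0.00217), and the call held whichever mouse was left out.

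Mcm5 was at 29.8, 29.7 and 26.1 CPM with vehicle and 52.1, 82.0 and 60.7 with the combination. The groups were well apart, with a log2 fold change of 1.16 ± 0.29 (edgeR adjusted p = 0.0148), and the call was lost without combination mouse 2 (0.96) or vehicle mouse 1 (1.21). Mcm2, another helicase subunit, was at 31.8, 14.8 and 39.2 CPM with vehicle and 65.4, 72.8 and 58.4 with the combination. Its log2 fold change was 1.20 ± 0.29 (edgeR adjusted p = 0.00874), and the call was lost without the low vehicle mouse 2 (0.95).

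Among the 7 mitotic kinase and checkpoint genes tested, Bub1b was called and 3 were at an unadjusted p below 0.05. Bub1b encodes a kinase of the spindle checkpoint. It was at 7.95, 7.42 and 4.36 CPM with vehicle and 26.6, 26.5 and 25.7 with the combination, which rests on 7 and 55 UMIs. The log2 fold change was 1.89 ± 0.49 (edgeR adjusted p = 0.0185), and leaving out any vehicle mouse ended the call (1.76 to 2.10). No member was called among 4 nucleotide synthesis genes, 5 cyclin genes, 8 spindle genes or 4 chromatin markers, with median log2 fold changes of 0.65, 0.60, 0.84 and 0.77 and 2, 1, 3 and 3 genes at an unadjusted p below 0.05. With every mouse thinned to the same number of cells, Pcna was still called, while Mcm2 (0.88) and Mcm5 (1.08) were not.

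**Figure D2:**
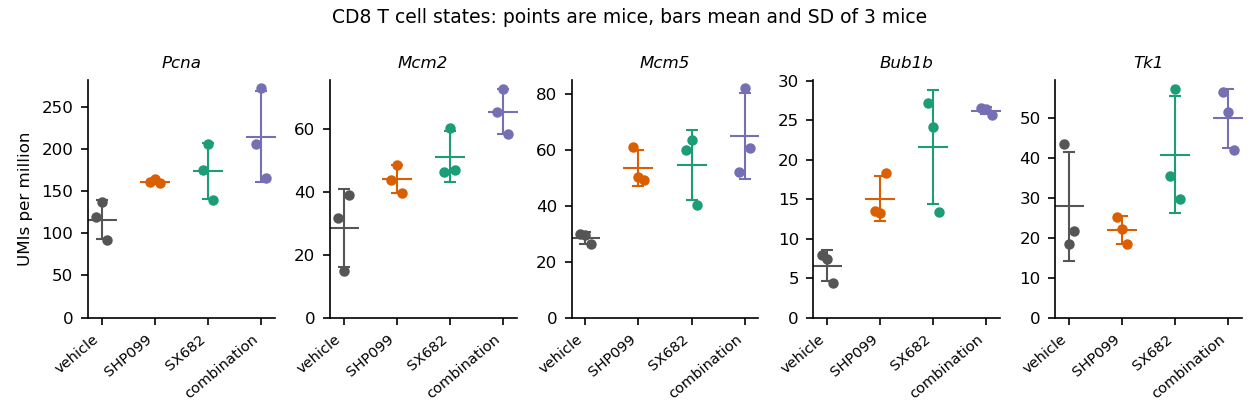
Pcna, Mcm2, Mcm5, Bub1b and Tk1 in CD8 T cells by treatment, in scaled CPM on the y axis, with points for mice and bars for the mean ± SD (n = 3). All combination mice lie above all vehicle mice for Pcna, Mcm2, Mcm5 and Bub1b, and vehicle mouse 1 lies within the combination's range for Tk1.

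The single drugs gave no called member in CD8 cells. For SHP099 against vehicle 0 of 39 passed edgeR's test (4 at an unadjusted p below 0.05, 0 by DESeq2, which gave no adjusted p for 16, background 7.47%) with a median log2 fold change of 0.46. For SX682 it was also 0 of 39 (7 at an unadjusted p below 0.05, 0 by DESeq2 with 36 left without an adjusted p, background 0.34%), with a median of 0.47. Against SHP099 the combination raised 1 of 39 (background 1.37%, median 0.36). This was Tk1, thymidine kinase of the nucleotide salvage pathway, at 25.3, 22.2 and 18.4 CPM with SHP099 and 56.6, 51.6 and 42 with the combination, a log2 fold change of 1.22 ± 0.28 (edgeR adjusted p = 0.0154). Vehicle mouse 1 reached 43.7, inside the combination's range, and the call was lost without SHP099 mouse 3 (1.11), combination mouse 1 (1.11) or combination mouse 2 (1.22). Against SX682 the combination had 0 called members (7 at an unadjusted p below 0.05, 0 by DESeq2 with 25 left without an adjusted p, background 2.85%) and a median of 0.33.

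The share of CD8 cells with at least 3 UMIs of the list was compared after thinning every cell to 1000 UMIs. It was 9.0%, 13.1% and 11.6% in the vehicle mice, 10.8%, 17.3% and 13.5% with SHP099, 15.8%, 19% and 10.9% with SX682, and 23.5%, 37.2% and 24.3% with the combination. Each combination mouse was above every other mouse, with means of 28.3 ± 7.68% and 11.2 ± 2.06% (SD, n = 3) for the combination and vehicle. After thinning to 500 UMIs, which keeps every cell and was added after seeing the data, the means were 17.97 ± 5.20% and 8.25 ± 2.64%, again without overlap. Without thinning the shares overlapped, at 28.7%, 37.5% and 29.4% in the combination and 19.1%, 29.4% and 25.5% with vehicle. The median depth was 1449 to 1679 UMIs per cell in the combination and 1800.5 to 2006 with vehicle, and thinning kept 78.3% to 80.1% and 89.6% to 91.7% of these cells.

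Neutrophils, as cells that do not divide, had 2.2% to 4.7% such cells after thinning, at median depths of 894 to 1282 UMIs, below every CD8 share. State T5 made up 14%, 23.5% and 13.1% of the CD8 cells in the combination and 5.65%, 7.56% and 7.55% with vehicle, where it held only 13, 9 and 8 cells. Markers of other cells moved in the CD8 sums as well. The B cell list was at 106 to 199 CPM in the combination and 8.47 to 41.6 with vehicle, the neutrophil list at 117 to 314 against 58.9 to 84.1, and the macrophage list at 52.4 to 76.8 against 152 to 233. Their part in the result was not tested.

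**Figure D3:**
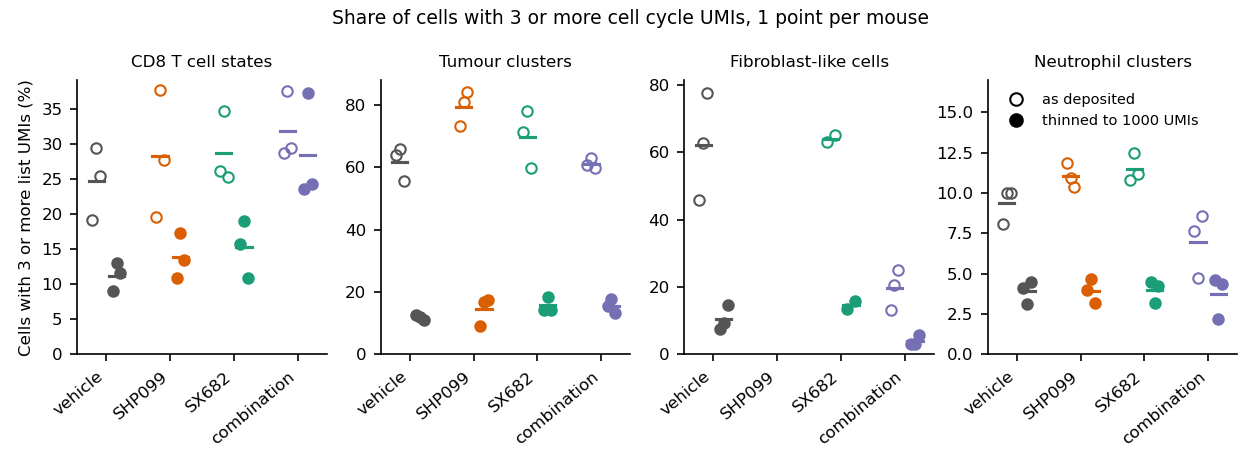
Share of cells with at least 3 UMIs of the list (y axis, percent) per mouse and treatment in CD8 T cells, tumour clusters, the fibroblast-like cluster C20 and neutrophils, with open points as deposited, filled points after thinning to 1000 UMIs per cell, and bars for the mean. In CD8 cells the thinned shares of the combination, 23.5% to 37.2%, lie above all others.

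Of the other cell cycle genes in CD8 cells, 1 of 14 drivers, 3 of 47 machinery genes and 0 of 16 brakes were called for the combination against vehicle. All were higher, and the background was 3.77%. Cdc25b, the phosphatase that activates Cdk1, had a log2 fold change of 1.23 ± 0.34, the chromosome-moving kinesin Kif22 2.18 ± 0.53, the DNA ligase Lig1 1.04 ± 0.27 and the tubulin Tuba1b 1.24 ± 0.26. SHP099 alone also gave calls outside the 42 genes, with Cdc25b at 1.22 ± 0.34, the spindle protein Tacc3 at 1.48 ± 0.43 and Tuba1b at 1.12 ± 0.27 higher, and the kinetochore gene Spc24 at -1.05 ± 0.34 lower. These were 1 of 14 drivers, 2 higher and 1 lower of 47 machinery genes, and 0 of 16 brakes, against a background of 7.47%. In C5, a T cell-like cluster with 4 members among its 10 leading genes, 1 of 40 tested members rose with SHP099 (background 6.17%), which was Hmgb2, at 4332, 3905 and 3861 CPM against 2708, 3459 and 3021 with vehicle (0.40 ± 0.09, edgeR adjusted p = 0.00505, lost without vehicle mouse 1 at 0.29). Hmgb2 is itself among the leading genes of C5, so its cells were grouped partly by the gene tested. The p-value does not account for this. T5 and T7 had at least 10 cells in only 1 vehicle mouse each, so neither could be compared with vehicle.

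In the sorted tumour cells, 0 of the 42 members passed the test for SHP099 against vehicle, with edgeR, against 25 of 20314 genes (0.123%), and none was at an unadjusted p below 0.05 or called by DESeq2. The summed level was 2584, 2230 and 1702 CPM in the vehicle libraries and 2047, 2563 and 3245 with SHP099, so the groups overlapped. Within each group the members took nearly the same order of libraries. Vehicle library 1 was the highest of its group for 40 of 42 members and vehicle library 3 the lowest for 38, while SHP099 library 3 was the highest for 41 and SHP099 library 1 the lowest for 40. The log2 fold change was above 0 for 41 of 42, with a median of 0.26, and no member's groups were apart, against 14.9% of all genes.

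The 3 members nearest the threshold in bulk were Mcm2, Mcm5 and Hmgb2. Mcm2 was at 136, 131 and 99.28 CPM with vehicle and 130, 150 and 203 with SHP099 (log2 fold change 0.40 ± 0.19, unadjusted p = 0.0712, edgeR adjusted p = 0.615). Mcm5 was at 80.2, 71.8 and 52.0 against 69.9, 90.1 and 116 (0.44 ± 0.22, edgeR adjusted p = 0.637), and Hmgb2 at 53.5, 48.4 and 32.7 against 48.1, 57.2 and 73.2 (0.41 ± 0.22, edgeR adjusted p = 0.663). In each the SHP099 group reached higher, but its lowest library lay within the vehicle range.

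Other members lay farther from the threshold. Mki67 was at 45.1, 43.1 and 23.8 CPM with vehicle and 33.4, 43.3 and 63.9 with SHP099 (0.33 ± 0.30). Top2a was at 124, 80.7 and 50.9 against 76.1, 98.3 and 137 (0.29 ± 0.34). Cdk1, the kinase of mitotic entry, was at 65.3, 43.0 and 35.2 against 42, 47.1 and 68.3 (0.13 ± 0.27), its cyclin Ccnb1 at 44.5, 36.3 and 26.8 against 31.1, 42.3 and 52.4 (0.23 ± 0.24), and Pcna at 82.1, 66.3 and 62.3 against 68.7, 78.6 and 102 (0.24 ± 0.17). Of the other cell cycle genes 0 of 26 drivers, 0 of 18 brakes and 0 of 60 machinery genes were called, with median log2 fold changes of 0.12, 0.01 and 0.25. These bulk values are less certain for Mcm7, Gins2, Tk1, Ccne2, Ccna2, Plk1, Cdc20, Ube2c, Kif20a, Nusap1, Top2a and Stmn1, which share exon sequence with a neighbouring gene, because the counts ignored strand.

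Other cells' markers differed in the sorted libraries. The alveolar type 2 list was at 3089 to 6915 CPM with vehicle and 289 to 569 with SHP099, the fibroblast list at 1239 to 2250 against 413 to 785, and the macrophage list at 572 to 600 against 247 to 397. The tumour epithelial list was at 10646 to 12212 against 8527 to 10697. Their part in the members' values was not tested. In bulk, fewer cells of a type and less RNA per cell cannot be told apart.

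The single-cell data hold 2 tumour epithelial-like clusters, C21 and C23. Summed, they gave 523 to 1123 cells per vehicle mouse but only 57 to 84 with SHP099. All 42 members were tested. SHP099 raised 3 and lowered none, against 13.5% of all genes called, with a median log2 fold change of 0.20. Hmgb2 was at 245, 348 and 457 CPM against 232, 203 and 209 with vehicle, all SHP099 mice higher (0.70 ± 0.16, edgeR adjusted p = 0.0144), and Kif23, a midzone kinesin needed for cell separation, at 45.1, 41.7 and 33.2 against 30.5, 28.1 and 26.1 (0.50 ± 0.15, edgeR adjusted p = 0.032). Cdc20, the anaphase activator, was at 22.6, 46.2 and 36.8 against 24.2, 18 and 13.6, with SHP099 mouse 1 inside the vehicle range (0.92 ± 0.27, edgeR adjusted p = 0.0416). The mix of the clusters differed as well. C23, where the list is higher, was 60.3% to 75.0% of these cells with SHP099 and 34.7% to 53.5% with vehicle. Taken alone, neither cluster gave a call for Kif23 or Cdc20, and Hmgb2 was called only in C21. The part of the mix in the summed calls was not tested.

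Each of these calls was lost without vehicle mouse 2 or 3 or without SHP099 mouse 2, and Cdc20 and Kif23 also without 1 more SHP099 mouse each, with log2 fold changes of 0.64 to 0.90 for Cdc20, 0.66 to 0.71 for Hmgb2 and 0.42 to 0.50 for Kif23. The combination raised 2 of 42 against vehicle (background 10%, median 0.06). Hmgb2 was at 315, 351 and 291 CPM (0.57 ± 0.16, edgeR adjusted p = 0.0418), and Pcna at 108, 127 and 114 against 88.8, 91.5 and 91.3 (0.37 ± 0.11, edgeR adjusted p = 0.0389). In both genes all combination mice were above all vehicle mice, yet leaving out any one mouse ended each call (0.49 to 0.63 and 0.29 to 0.42). SX682 gave 0 called members against vehicle, with 0 at an unadjusted p below 0.05 and 0 by DESeq2, which gave no adjusted p for 32 (background 0.546%). The share of tumour cells with at least 3 list UMIs after thinning was 11.8 ± 0.787% with vehicle, 14.4 ± 4.71% with SHP099, 15.7 ± 2.41% with SX682 and 15.4 ± 2.29% with the combination (SD, n = 3). The SX682 and the combination mice were all above the vehicle mice, and the SHP099 mice overlapped them. Without thinning the mean of the combination was below that of vehicle.

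The summed list was at 594 ± 291 CPM in C21 and 2738 ± 372 in C23, with no member among the 10 leading genes of either, and C23 made up 46.9%, 53.5% and 34.7% of the tumour cells with vehicle and 60.3%, 75.0% and 73.7% with SHP099. In C23, SHP099 lowered 5 of 41 tested members and raised none, against 14% of all genes called, and the median log2 fold change was -0.18. The 5 of 41 are near the 14% of all genes called there, so no pattern is read from their number. Except for Cenpa, the 5 genes have roles in DNA synthesis.

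Of the 5, 3 were nucleotide synthesis genes. Tyms, thymidylate synthase, was at 60.8, 51.6 and 75.5 CPM with vehicle and 27.9, 35.2 and 42.2 with SHP099, with no overlap. It fell by 0.82 ± 0.18 on the log2 scale (edgeR adjusted p = 0.00357), and this call held whichever mouse was left out. Tk1 was at 85.7, 87.6 and 102 against 25.4, 57.4 and 63.8 (-0.87 ± 0.22, edgeR adjusted p = 0.0188, lost without vehicle mouse 3 at -0.81). Rrm2, the regulated subunit of ribonucleotide reductase, was at 128, 104 and 151 against 39.96, 41.3 and 96.3 (-1.12 ± 0.30, edgeR adjusted p = 0.0391). In each of them every SHP099 mouse was below every vehicle mouse. Other tumour data differed in direction for this role. In bulk 4 of 4 nucleotide synthesis genes had a log2 fold change above 0 (median 0.17), and in C21 3 of 4 (median 0.70). In C21 and C23 summed it was 1 of 4 (median -0.46). None of these genes was called in bulk, in C21 or in the sum.

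Gins2, a subunit of the replication fork helicase, was at 30.3, 31.6 and 35.5 CPM with vehicle and 14.5, 23 and 16.2 with SHP099 (-0.80 ± 0.23, edgeR adjusted p = 0.0216), and Cenpa at 141, 122 and 121 against 82.3, 92.6 and 104 (-0.46 ± 0.13, edgeR adjusted p = 0.0167). The calls of Rrm2, Gins2 and Cenpa were lost without SHP099 mouse 1 (-0.94, -0.69 and -0.39). Those of Rrm2 and Cenpa were also lost without SHP099 mouse 2 (-0.88 and -0.46) or vehicle mouse 1 (-1.12 and -0.39), and those of Rrm2 and Gins2 without vehicle mouse 3 (-1.01 and -0.76), while Gins2 was lost without SHP099 mouse 3 as well (-0.73). With the combination Tyms was at 53.1, 65.0 and 66.4 CPM, above the SHP099 mice (0.80 ± 0.19 against SHP099, edgeR adjusted p = 0.0286, background 2.05%), a call lost in 4 of 6 refits without 1 mouse (0.68 to 0.80). With equal numbers of cells per mouse only Rrm2 of the 5 was still called in C23, with Tyms at -0.66. Against vehicle the combination had 0 called members in C23 (4 at an unadjusted p below 0.05, 1 called by DESeq2, background 8.91%).

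Of 58 machinery genes 7 fell and 2 rose in C23 with SHP099, a share near the 14% of all genes called there. Those that fell included the clamp loader Rfc5 at -1.19 ± 0.27, the polymerase Pole at -1.12 ± 0.33, the fork helicase cofactor Cdc45 at -1.06 ± 0.33 and the maintenance methyltransferase Dnmt1 at -0.68 ± 0.22, and those that rose were Tuba1b at 0.59 ± 0.10 and the condensin Smc4 at 0.49 ± 0.12. Of 17 brakes 3 fell, namely Cdkn2d at -1.29 ± 0.23, Ccng2 at -0.84 ± 0.16 and Trp53 at -0.69 ± 0.23. Of 23 drivers the cyclin Ccnd2 rose (0.50 ± 0.11) and Tfdp1 (-0.42 ± 0.13) and Cks1b (-0.36 ± 0.10) fell. The C23 values rest on 42 to 63 SHP099 cells per mouse against 201 to 527 with vehicle. The macrophage list in C23 was at 53.4 to 72.0 CPM with SHP099 and 400 to 425 with vehicle, and its part in the result was not tested.

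**Figure D4:**
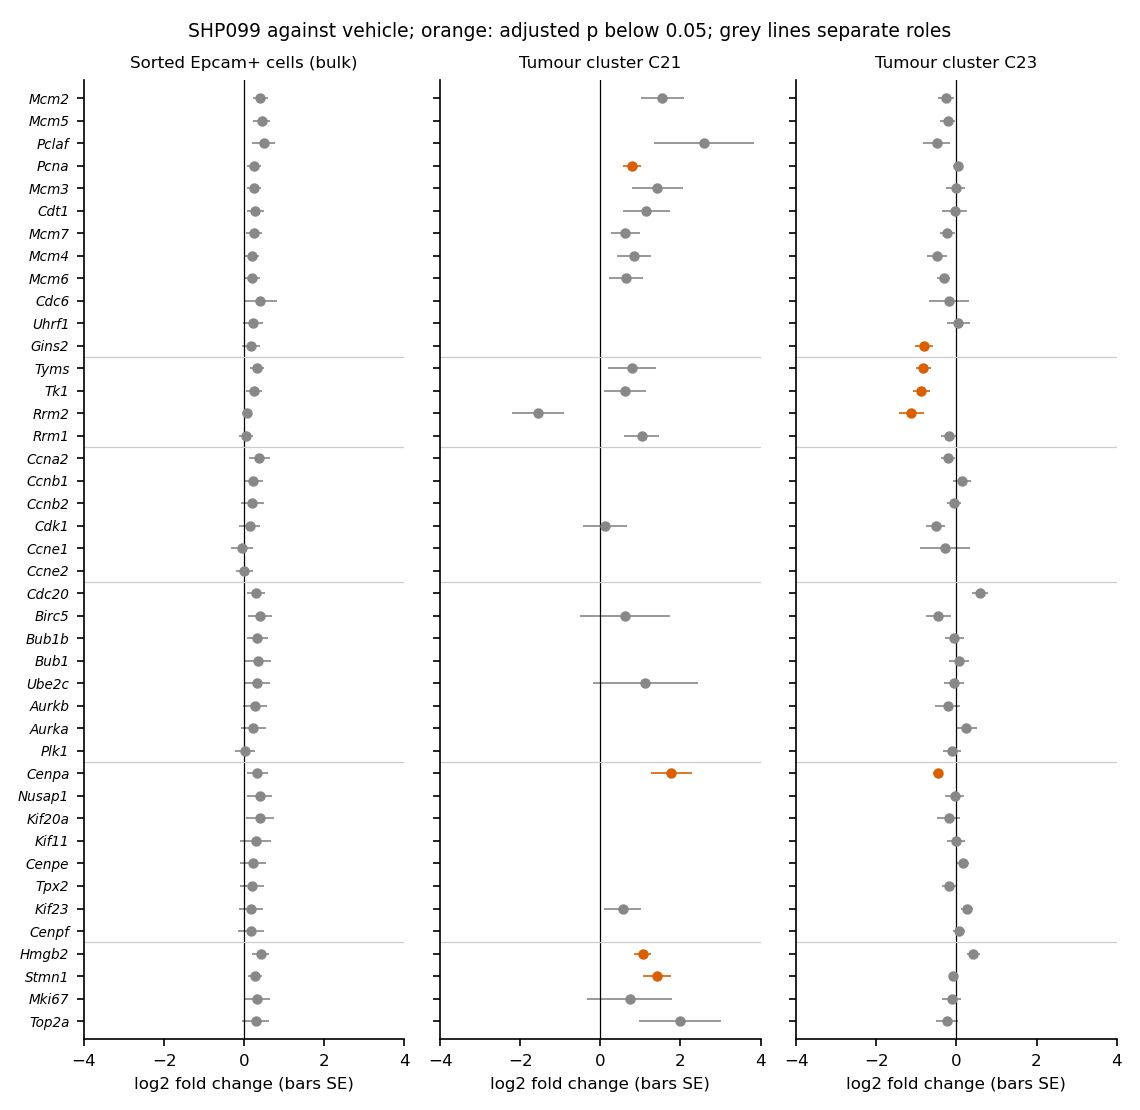
Log2 fold change ± SE of the tested members for SHP099 against vehicle (x axis) in sorted bulk cells, C21 and C23, with orange points for an edgeR adjusted p below 0.05. No member is orange in bulk, 4 are orange and above 0 in C21, and 5 are orange and below 0 in C23.

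In C21, where the list is low, 21 members could be tested. SHP099 raised 4 of them and lowered none (background 5.94%, median 0.85). Hmgb2 was at 164, 333 and 206 CPM against 125, 121 and 87.9 with vehicle (1.06 ± 0.22, edgeR adjusted p = 0.00658), Stmn1 at 57.8, 162 and 131 against 48.8, 38.9 and 36.7 (1.41 ± 0.36, edgeR adjusted p = 0.0365), and Cenpa at 18.3, 38.5 and 35.1 against 9.92, 8.64 and 6.78 (1.77 ± 0.51, edgeR adjusted p = 0.0432). Pcna was at 73.0, 154 and 65.3 against 56.2, 60.0 and 51.7 (0.79 ± 0.23, edgeR adjusted p = 0.0397). SHP099 mouse 2 was the highest for all 4 genes.

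Without SHP099 mouse 2 all 4 calls in C21 were lost, at log2 fold changes of 0.70 for Hmgb2, 1.06 for Stmn1, 1.54 for Cenpa and 0.32 for Pcna. Its summed list level was 1445 CPM, against 478 and 638 in the other SHP099 mice, and the SHP099 mice had 15 to 31 cells of C21 each against 243 to 596 with vehicle. Vehicle mouse 2 or 3 also decided the calls of Stmn1 (1.36 and 1.33), Cenpa (1.76 and 1.62) and Pcna (0.82 and 0.74), vehicle mouse 1 that of Pcna (0.77), SHP099 mouse 3 those of Stmn1 (1.30) and Cenpa (1.64), and SHP099 mouse 1 that of Cenpa (2.09). With equal numbers of cells per mouse none of the 4 was called in C21, with Hmgb2 at 0.29. With the combination Stmn1 rose in C21, at 97.7, 95.2 and 126 CPM (1.35 ± 0.28 against vehicle, edgeR adjusted p = 0.00889, background 9.79%), and this call held whichever mouse was left out but not with equal cells (1.25). Rrm2 fell in C21, at 13.2, 9.06 and 16 against 35.3, 32.6 and 36.7 (-1.45 ± 0.40, edgeR adjusted p = 0.034), a call lost whichever mouse was left out (-1.68 to -1.26).

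The comparison with the most called members was in C20, a fibroblast-like cluster. Of 31 members tested, 16 were lower in the combination than with SX682 and none was higher (11 called by DESeq2), against 8.33% of all genes called (289 higher and 347 lower). The median log2 fold change of the 31 was -2.77, and 25 were lower in every combination mouse than in either SX682 mouse, against 37.6% of all genes not overlapping in either direction. Against vehicle the combination lowered 4 and raised none (background 3.98%), with a median of -2.13, 22 at an unadjusted p below 0.05 and 21 of the 31 lower without overlap, against 25.6%. SX682 against vehicle had 0 calls by edgeR and by DESeq2, with 6 at an unadjusted p below 0.05 and a background of 0.982%. SX682 enters with 2 mice, since the third had 7 cells, and SHP099, with 4 to 7 cells per mouse, could not be tested. Members with few or no UMIs in the combination passed the count filter only through vehicle or SX682 mice. The medians and the counts of lower members, here and by role below, therefore lean downward in advance.

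By role, most of the lower calls were mitotic genes. Of 5 mitotic kinase and checkpoint genes 4 were called lower against SX682, of 4 cyclin genes 3, of 6 spindle genes 4, of 4 chromatin markers 2, of 4 nucleotide synthesis genes 1 and of 8 licensing and fork genes 2, with a median log2 fold change of -0.64 for the last group. Cdk1 was at 54.0, 44.9 and 74.2 CPM with vehicle, 93.7 and 78.4 with SX682, and 12, 6.74 and 11.6 with the combination. The combination was far below both, by -3.08 ± 0.49 on the log2 scale against SX682 (edgeR adjusted p = 0.00188), held whichever mouse was left out, and by -2.47 ± 0.51 against vehicle (edgeR adjusted p = 0.0142), lost without combination mouse 2 (-2.23).

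Cenpa was at 120, 57.5 and 119 CPM with vehicle, 130 and 125 with SX682, and 18, 27 and 0 with the combination (-2.86 ± 0.52 against SX682, edgeR adjusted p = 0.00502, and -2.50 ± 0.52 against vehicle, edgeR adjusted p = 0.0162). Against vehicle its call was lost without combination mouse 1 (-2.52) or 2 (-3.05). Cenpf, which links kinetochores to microtubules, was at 45.8, 48.5 and 111 with vehicle, 99.6 and 63.3 with SX682, and 5.99, 0 and 0 with the combination. This is 1 UMI against 143 with SX682, a ratio of pooled levels of 0.0334 with a 95% counting interval of 0.00084 to 0.189. Tpx2, which starts spindle assembly with Aurka, was at 54.0, 26.9 and 68.9 with vehicle, 71.2 and 58.0 with SX682, and 5.99, 0 and 0 with the combination, or 1 UMI against 114, a ratio of 0.0419 with a 95% counting interval of 0.00105 to 0.238.

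Plk1, the polo kinase of mitotic entry, was at 11.7, 14.4 and 23.8 CPM with vehicle, 38.0 and 29 with SX682, and had no UMI in any combination mouse against 59 UMIs with SX682. Against the floor of 3 UMIs over the group it was at least 4.12-fold lower (edgeR adjusted p = 0.0121). Bub1b had 0 UMIs against 30 and was at least 2.09-fold lower (edgeR adjusted p = 0.0469). Ccna2 had 2 UMIs in the combination against 114 with SX682 (ratio 0.0838, 95% interval 0.01 to 0.31), Kif23 1 against 45 and Ccnb2 3 against 117. The rest of the 16 were Cdc20 (2 against 71), Rrm2 (2 against 71), Gins2 (2 against 63), Birc5 (6 against 172), Pclaf (10 against 219), Top2a (7 against 126) and Stmn1 (35 against 366). Intervals and floors cover counting error only.

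**Figure D5:**
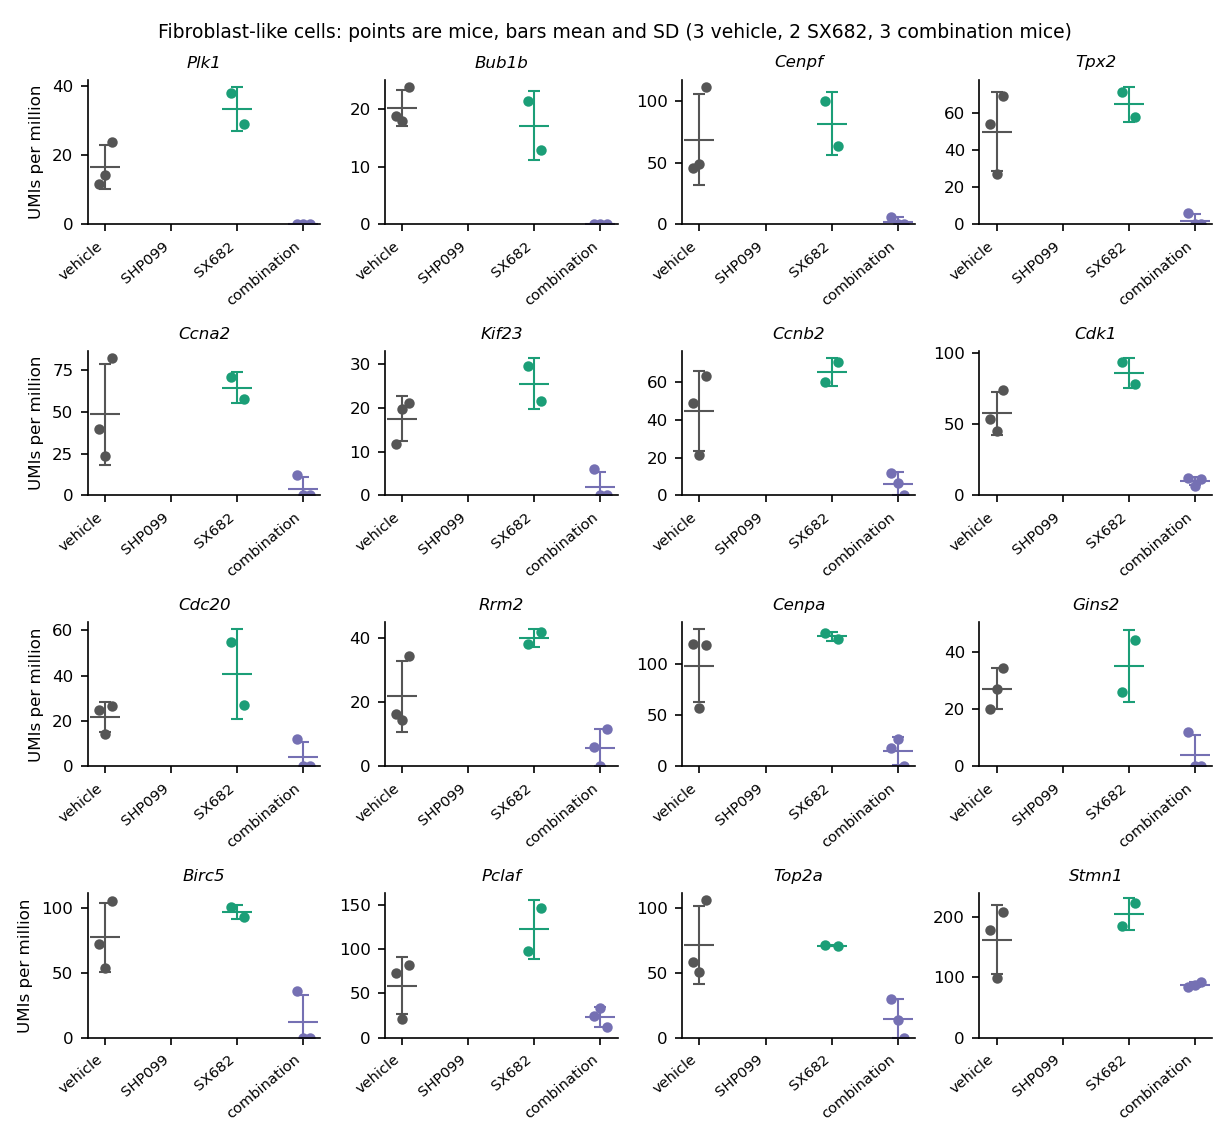
Level of the 16 members called in C20 for the combination against SX682, in scaled CPM, with points for mice and bars for the mean ± SD (3 vehicle, 2 SX682 and 3 combination mice). The combination mice lie at or near 0 for Plk1, Bub1b, Cenpf and Tpx2.

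The members that were not called included most of the helicase subunits. Pcna had a log2 fold change of -0.38 ± 0.39 against SX682, Mcm2 of -0.15, Mcm6 of -0.50 and Hmgb2 of -0.51, and Mki67 just missed the threshold at -1.59 ± 0.50 (edgeR adjusted p = 0.063). Plk1, Tpx2, Cdk1 and Cenpa kept their call against SX682 whichever mouse was left out, but leaving out an SX682 mouse leaves 1, which the fit assumes to vary like the mice of the other groups. With equal numbers of cells per mouse 7 of the 16 were called, and Cenpa (-3.99) was not. Combination mouse 2 was the mouse most calls depended on, with 12 of the 16 lost without it, against 6 without combination mouse 1, 9 without combination mouse 3, and 5 of 14 and 8 of 15 refitted calls without SX682 mouse 1 or 2. Without combination mouse 2 the 4 calls against vehicle were all lost, at -3.96 for Cenpf and -3.56 for Tpx2. Without combination mouse 3 Cenpf (-4.24) and Tpx2 (-3.85) were lost against vehicle, and without combination mouse 1 Cenpf was.

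The C20 cells differed in depth and in other cells' markers. The combination mice had 20 to 38 cells each, with a median of 2788 to 3955.5 UMIs per cell, against 8124 to 15091 with vehicle and 11729 to 18700 with SX682. The fibroblast list was at 7604 to 10573 CPM in the combination, 7505 to 10248 with vehicle and 6656 to 7857 with SX682. The tumour epithelial list was at 254 to 443 in the combination, 689 to 1267 with vehicle and 1426 to 2053 with SX682, while it was 9319 to 11295 in the tumour clusters of the vehicle mice. Cldn4 was at 0 in all 8 mice, and Epcam was at 0 in the 3 combination mice.

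No UMI of the tumour epithelial list was found in 71 of 92 combination cells (77.2%), 79 of 164 vehicle cells (48.2%) and 36 of 100 SX682 cells (36%). Finding no such UMI also depends on depth. These cells had medians of 2112 to 2808.5 UMIs in the combination mice, 6456 to 8794 with vehicle, and 3834.5 and 2839.5 with SX682. In those cells, a split chosen after seeing the data, the summed list was at 248, 358 and 450 CPM in the combination, 1477, 1287 and 374 with vehicle, and 1074 and 1246 with SX682. Every combination mouse was below both SX682 mice, with a difference in means of -808 against -1487 in all C20 cells, and the combination overlapped with vehicle mouse 3. After thinning to 1000 UMIs, the share of C20 cells with at least 3 list UMIs was 2.9%, 3.1% and 5.9% in the combination, 7.7%, 9.3% and 14.8% with vehicle, and 13.5% and 15.9% with SX682. The part of depth in this split and in the called genes was not tested.

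Other cell cycle genes in C20 went the same way. Against SX682 the combination lowered 8 of 25 machinery genes, 2 of 9 drivers and 2 of 15 brakes and raised none. Hmmr, Spc24 and Cdkn3 had no UMI in the combination, the chromosomal passenger gene Cdca8 was at -3.24 ± 0.77, Cks1b, a Cdk subunit, at -2.31 ± 0.34, Cdk4 at -1.09 ± 0.24, and the brakes Ccng1 at -1.69 ± 0.41 and Btg2 at -1.25 ± 0.26. Against vehicle 4 of 25 machinery genes, Cks1b (-1.61 ± 0.34) and Btg2 (-1.54 ± 0.24) were lower.

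Elsewhere 1 or 2 members were called per cluster and comparison. Pcna rose with SHP099 in 3 lymphoid or neutrophil clusters that are not led by members. In C30 it was at 213, 218 and 216 CPM against 52.0, 79.5 and 87.4 with vehicle (1.70 ± 0.30, edgeR adjusted p = 0.000121), a call that held whichever mouse was left out, and at 216, 167 and 145 with the combination (1.40 ± 0.30, edgeR adjusted p = 0.0053, lost without vehicle mouse 1 at 1.17). In C6, an NK cell-like cluster, it was at 154, 168 and 215 against 77.9, 124 and 39.5 (0.94 ± 0.27, edgeR adjusted p = 0.0115), lost without SHP099 mouse 3 (0.84), vehicle mouse 1 (0.82) or vehicle mouse 3 (0.75). In C1, a B cell-like cluster, it was at 97.8, 76.8 and 86.9 against 42.6, 61.0 and 46.2 (0.84 ± 0.23, edgeR adjusted p = 0.0167), lost without SHP099 mouse 1 (0.74) or vehicle mouse 1 (0.65). The SHP099 and vehicle mice did not overlap in any of the 3. The background was 8.75% and 2.38% for these comparisons in C30, 12.1% in C6 and 9.9% in C1.

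SHP099 lowered members in 2 myeloid clusters, where 4.86% (C15) and 3.12% (C18) of all genes were called. In C15, a macrophage-like cluster, Tk1 was at 8.23, 4.96 and 2.20 CPM against 18.4, 21.7 and 39.5 with vehicle (-2.29 ± 0.50, edgeR adjusted p = 0.0118), and Cdk1 at 8.23, 4.96 and 4.40 against 17, 16 and 30.4 (-1.81 ± 0.46, edgeR adjusted p = 0.0233). Both were lost without SHP099 mouse 2 (-2.25 and -1.67) or 3 (-2.02 and -1.70), and Cdk1 without vehicle mouse 3 (-1.51). In C18, Tk1 was at 0, 5.26 and 14 against 26.6, 39.1 and 49.5 (-2.29 ± 0.66, edgeR adjusted p = 0.0491), on 4 and 96 UMIs, and was lost without SHP099 mouse 1 or 2 (-2.02 and -2.07) or vehicle mouse 2 or 3 (-2.28 and -2.02).

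In C26 SHP099 raised 2 mitotic genes (background 9%). Plk1 was at 20.7, 16.6 and 18.1 CPM against 7.84, 0 and 11.5 (1.73 ± 0.52, edgeR adjusted p = 0.0335), and Ccnb1 at 15.9, 26.5 and 20.1 against 2.61, 12.7 and 13.8 (1.27 ± 0.40, edgeR adjusted p = 0.039). Leaving out SHP099 mouse 2 (1.81 and 1.02) or 3 (1.74 and 1.28) ended both calls, SHP099 mouse 1 (1.60) or vehicle mouse 2 (1.06) that of Plk1, and vehicle mouse 1 that of Ccnb1 (0.64). In C16, a macrophage-like cluster, Cenpa was at 112 and 147 in the 2 SHP099 mice tested against 55.5, 52.3 and 54.7 (1.27 ± 0.27, edgeR adjusted p = 0.0433, background 0.666%), a call lost whichever mouse was left out (1.06 to 1.43). The SHP099 values rest on 13 and 23 UMIs. No SHP099 mouse had more than 17 cells of C16, against 180 to 454 with vehicle.

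Hmgb2 and Stmn1 rose in lymphoid clusters. The cells of T8 also belong to C1 to C33, so the calls in T8 and C9 below may share cells. In T8, a gamma delta T cell-like state, Hmgb2 was at 613, 788 and 1750 CPM with SHP099 against 335, 393 and 473 with vehicle (1.28 ± 0.38, edgeR adjusted p = 0.022, background 9.95%), lost without SHP099 mouse 3 (0.90) or any vehicle mouse (1.23 to 1.43). This was the only call among 24 member tests of SHP099 against vehicle in the T cell states (background 7.9%), and the other T state comparisons had none, in edgeR or DESeq2. Those were SX682 (24 tests, 1 at an unadjusted p below 0.05, background 0.669%), the combination against vehicle (24 tests, 5 and 2.37%), against SHP099 (100 tests, 13 and 0.694%) and against SX682 (65 tests, 7 and 3.15%). In C9, a gamma delta T cell-like cluster, Hmgb2 was called with SHP099 (0.83 ± 0.25, edgeR adjusted p = 0.0333, background 7.03%) with overlapping groups, and lost without SHP099 mouse 2 or 3 (0.76 and 0.72) or vehicle mouse 1 or 2 (0.67 and 0.87).

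In C7, an NK cell-like cluster of 23 to 79 cells per mouse, Hmgb2 was at 435, 447 and 531 CPM with vehicle, 313, 285 and 261 with SHP099, 574, 341 and 320 with SX682, and 611, 709 and 706 with the combination. The combination was above all other mice, by 1.25 ± 0.25 against SHP099 (edgeR adjusted p = 0.0148, background 0.292%) and 0.78 ± 0.20 against SX682 (edgeR adjusted p = 0.0142, background 4.03%). The former was lost without SHP099 mouse 2 (1.25) or combination mouse 2 or 3 (1.21 in both), the latter without combination mouse 2 or 3 (0.74 and 0.72) or SX682 mouse 2 or 3 (0.64 and 0.62). In C8, a T cell-like cluster, Stmn1 was at 125, 168 and 160 with the combination against 38.9, 88.9 and 48.6 with vehicle, 88.0, 26.7 and 16.2 with SHP099 and 46.4, 71.7 and 62.2 with SX682.

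The combination was thus the highest group for Stmn1 in C8, without overlap. The log2 fold changes were 1.34 ± 0.37 against vehicle (edgeR adjusted p = 0.0315), 1.80 ± 0.36 against SHP099 (edgeR adjusted p = 0.00652) and 1.24 ± 0.31 against SX682 (edgeR adjusted p = 0.011), with backgrounds of 4.27%, 0.929% and 4.33%. They were lost, in that order, without combination mouse 2 or 3 (1.24 and 1.33) or vehicle mouse 1 or 3 (1.0997 and 1.26), without SHP099 mouse 2 (1.53), and without combination mouse 2 (1.11) or SX682 mouse 3 (1.24). In C14, whose cells no marker list names, Birc5, which encodes the passenger protein survivin, was at 91.7, 65.0 and 90.2 with the combination against 4.33, 29.5 and 53.5 with SX682 (1.72 ± 0.46, edgeR adjusted p = 0.0342, background 3.25%). That call was lost without combination mouse 1 or 3 (1.65 in both) or SX682 mouse 1 or 2 (1.03 and 1.91).

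Over all cells the share with at least 3 list UMIs was 30.8%, 33.1% and 40.05% with vehicle and 20.4%, 20.2% and 21.3% with the combination as deposited, so that the combination was lower in every mouse. After thinning to 1000 UMIs it was 7.4%, 8.5% and 9.9% with vehicle and 11.3%, 11.0% and 9.5% with the combination, and the groups overlapped with the means in the opposite order. The order of the means over all cells thus changed with thinning, and no order is read from it.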

How the data were processed

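The deposited bulk tables hold raw read counts per gene, and the deposited single-cell matrix holds UMI counts per gene and cell with the authors' cluster numbers. Per the submitters' processing notes, the tools included bcl2fastq, Cell Ranger, STAR, Picard, HTSeq, DESeq2 and bedtools with R 3.3.0, on mm10. Per the file headers, clusters came from iCellR, and the bulk counts ignored strand.

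UMIs were summed per mouse, with at least 10 cells. Counts were tested with edgeR 4.0.16 (R 4.3.3; filterByExpr, TMM scaling, robust quasi-likelihood fit, all 4 treatments in 1 fit per cluster), two-sided, with Benjamini-Hochberg adjustment over all genes of a fit and a threshold of 0.05. CPM of tested members are TMM-scaled, and levels across clusters are unscaled. DESeq2 1.42.0, its size factors, no count filter, equal cells per mouse, a replicate block and leaving out each mouse were alternatives. Shares and summed levels have no test. Values in every sample are given for called members, at most 6 each way per fit. The scripts were tested on simulated data. Doublets were not called here, and 0 columns of values lacked a sample. The members and lists were chosen with earlier results of these data known.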

Additional observations from a re-analysis of the deposited data

Results flagged for a closer look

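The difference between the effect of SHP099 with and without SX682 passed the test for 1 member in 1 cluster. In C7, the NK cell-like cluster with 23 to 79 cells per mouse, the log2 level of Hmgb2 in the combination minus SHP099 minus SX682 plus vehicle was 1.48 ± 0.32 (edgeR adjusted p = 0.0275), among 345 such tests in 27 clusters with 0.612% of all gene tests called. Each drug's mean was below the vehicle mean while the combination was above it, as the values of the 12 mice given above show. DESeq2 gave 1.46 (adjusted p = 0.183), and leaving out 1 mouse ended the call in 7 of 12 refits, with values of 1.34 to 1.76. The cause was not tested.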

How the results depend on the processing

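No called member changed direction in a refit that gave it a value, but some refits gave none. With DESeq2 41 calls held and 11 did not, and with equal cells 14 held and 35 did not, the rest having no value. Without a filter on low counts more members were called in clusters, namely 39 in place of 20 for SHP099 against vehicle, 8 in place of 0 for SX682, 29 in place of 8 for the combination against vehicle, 16 in place of 3 against SHP099 and 32 in place of 19 against SX682. With the same number of cells from each mouse the cluster counts were 6, 2, 1 and 7 for SHP099, the combination against vehicle, against SHP099 and against SX682. DESeq2 gave 13 for the combination against vehicle and 8 against SHP099. Leaving out 1 mouse gave 9 to 20, 0 to 1, 2 to 12, 1 to 6 and 5 to 18 in the same order as the first list.

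In the T cell states, SHP099 had 1 call, 3 without the filter, 0 with equal cells and 0 to 1 without 1 mouse. The combination had 0 against vehicle, 1 without the filter, 2 with equal cells and 0 to 2 without 1 mouse, 0 to 2 against SHP099 without 1 mouse, and 2 against SX682 with equal cells. In CD8 cells the counts without the filter were 2 for SHP099, 1 for SX682, 13 for the combination against vehicle, 6 against SHP099 and 2 against SX682. Equal cells gave 1 for the combination against vehicle, and DESeq2 gave 2 against SHP099. Without 1 mouse they were 0 to 1 for SX682, 3 to 7 for the combination against vehicle, 0 to 2 against SHP099 and 0 to 1 against SX682. In the tumour clusters SHP099 had 3 calls, 1 without the filter, 7 with equal cells and 0 to 9 without 1 mouse. The combination had 2 against vehicle, 0 without the filter, 0 with equal cells and 0 to 0 without 1 mouse, 0 to 1 against SHP099 without 1 mouse, and 1 against SX682 by DESeq2. The non-additive test had 1 call, 3 by DESeq2, 11 without the filter, 0 with equal cells and 0 to 6 without 1 mouse. Equal cells left fewer cells, down to the smallest mouse of each set. The cause of the other changes was not tested.

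Pairing of the samples by replicate number was not shown. The correlation of deviations between same-numbered samples was -0.117 to 0.0995 in bulk, -0.1425 to 0.2398 in CD8 cells and -0.3137 to 0.4032 in the tumour clusters. Between samples of other numbers it was -0.3828 to 0.4141, -0.2793 to 0.2348 and -0.4215 to 0.3408. Bulk has only 3 same-numbered pairs, too few to exclude pairing. With the replicate block the counts were 1 for SHP099, 1 for SX682, 9 for the combination against vehicle, 5 against SHP099 and 2 against SX682 in CD8 cells, 1 for the combination against vehicle and 1 against SX682 in the T states, 1 for the combination against vehicle in the tumour clusters, and 2 for the non-additive test.

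The share of cells with at least 3 list UMIs, combination minus vehicle, was -14.02 percentage points over all cells, 1.99 after thinning to 1000 UMIs, 0.708 after thinning to 500 (added after seeing the data), -8.505 at 5 or more UMIs, and -15.95 to -11.33 without 1 mouse. In CD8 cells it was 7.195, 17.12 and 9.727 after thinning to 1000 and 500, and 4.399 to 9.566 without 1 mouse. In the tumour clusters it was -0.7114, 3.639 and 0.904 after thinning to 1000 and 500, 1.323 at 2 or more UMIs, 1.626 at 5 or more, and -3.767 to 1.276 without 1 mouse, reversing without combination mouse 3 (0.001), vehicle mouse 1 (0.3566) or vehicle mouse 2 (1.276). In neutrophils it was -2.377, 0.5086 at 5 or more UMIs, and -3.17 to -1.252 without 1 mouse. The summed level of the list, combination minus vehicle, was 191 over all cells (123.3 to 283.6 without 1 mouse), 2326 in CD8 cells (1577 to 2765) and 245.7 in the tumour clusters (92.99 to 336.4). In neutrophils it was -11.19, 52.33 less Hmgb2 and Stmn1, and -47.57 to 34.42 without 1 mouse, above 0 without combination mouse 2 (34.42) or vehicle mouse 1 (20.04). The filter on low counts limits which members are tested, with 21 of the 42 in C21, 31 in C20 and 41 in C23.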
